A study of Homo sapiens with 14 samples.

Results

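Nascent transcription of 10 genes of the NF-kappa-B pathway was followed in A549 cells, a human lung adenocarcinoma line, by PRO-seq, which maps RNA polymerases that are engaged on genes and elongating. The genes were every row of the deposited table of 58780 genes whose name was NFKBIA, NFKBIE, TNFAIP3, TNIP1, BIRC3, BIRC2, NFKB1, NFKB2, RELA or RELB, each name found once, and all 10 passed the filter on low counts that left 21910 genes to test. The 14 libraries form 7 groups of 2. Untreated cells, labelled 15 min, were compared with cells given GSK591, an inhibitor of the arginine methyltransferase PRMT5, or MS023, an inhibitor of the type I arginine methyltransferases, each at 1 µM for 15 min or 3 h. In the remaining groups each inhibitor was combined for 15 min with 100 nM dexamethasone (Dex), a synthetic glucocorticoid. Per the labels all groups, the untreated cells included, were in 0.01% DMSO. Every Dex library also carries an inhibitor, and neither Dex alone nor untreated cells at 3 h were analysed here, so a change at 3 h cannot be told apart from time in culture. The labels do not say whether the libraries of a group came from separate cultures, so p-values measure only the spread between these libraries.

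NF-kappa-B is a family of dimeric transcription factors. In resting cells most dimers are held in the cytoplasm by IκB proteins, and signals from cytokine receptors switch on the IκB kinase, which marks IκB for destruction and frees the dimer to enter the nucleus. A second, slower route processes the NFKB2 precursor and frees dimers that contain RELB. Several target genes of the factor encode its own brakes, among them NFKBIA and TNFAIP3, and in many cell types glucocorticoids dampen NF-kappa-B activity, with transcription of NFKBIA among the steps described. These points are background and not results of these libraries.

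The upstream sequences of 4 genes that changed are shown because they carry matches to the NF-kappa-B consensus whether the gene rose or fell. They come from the RefSeq promoter table (GRCh38.p14), run 5′ to 3′ on the gene's strand, and capitals mark the matches. Positions count back from -1, the base before the RefSeq start. NFKBIA is shown from -250 to -1 (chr14:35404750-35404999, minus strand), BIRC3 from -250 to -35 (chr11:102317234-102317449, plus strand), TNFAIP3 as 30 bases from -71 to -42 (chr6:137867188-137867217, plus strand), which GENCODE release 29 places in the first exon of a longer transcript, and NFKB2 from -250 to -12 of the third RefSeq start (chr10:102395455-102395693, plus strand).
NFKBIA: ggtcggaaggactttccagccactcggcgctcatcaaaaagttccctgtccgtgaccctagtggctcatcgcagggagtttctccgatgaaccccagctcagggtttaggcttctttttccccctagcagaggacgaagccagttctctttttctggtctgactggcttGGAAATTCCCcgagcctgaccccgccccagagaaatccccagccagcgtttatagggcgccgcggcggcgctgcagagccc
TNFAIP3: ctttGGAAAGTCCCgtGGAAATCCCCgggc
BIRC3: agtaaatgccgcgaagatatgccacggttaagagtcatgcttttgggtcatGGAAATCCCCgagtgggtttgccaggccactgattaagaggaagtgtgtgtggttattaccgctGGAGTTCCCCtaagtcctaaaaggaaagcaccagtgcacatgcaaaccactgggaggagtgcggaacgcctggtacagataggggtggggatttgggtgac
NFKB2: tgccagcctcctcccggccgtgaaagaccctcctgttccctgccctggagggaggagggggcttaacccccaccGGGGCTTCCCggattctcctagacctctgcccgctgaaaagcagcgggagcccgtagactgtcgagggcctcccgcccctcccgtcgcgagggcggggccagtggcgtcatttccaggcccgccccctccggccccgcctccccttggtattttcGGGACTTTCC

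Of the 10 genes, 8 had an entry in the promoter table, which spans 250 bases before to 50 bases after each start. NFKBIE and RELB are named only. On both strands, 6 of the 8 genes held at least 1 match to the NF-kappa-B consensus (NFKBIA, TNFAIP3, BIRC3, NFKB1, NFKB2 and TNIP1), against 11.3% of 34943 promoter windows in the table. Genes with several starts had several windows and so more chances of a match. NFKBIA held its match at -81 to -72, TNFAIP3 a pair at -67 to -58 and -55 to -46, and BIRC3 a pair at -199 to -190 and -135 to -126. NFKB2 held 5 matches over its windows, 2 of which overlap each other. The glucocorticoid response element was searched as the full palindrome, in which the arms AGAACA and TGTTCT stand 3 bases apart, found in none of the 8 genes and in 0.0029% of all windows, and as the single arm AGAACA, found in none of the 8 and in 14.8% of all windows. The TATA box, TATAAA, searched on both strands, was found in 11.6% of all windows and in NFKBIA at -33 to -28, there on the strand opposite to the gene, so that the gene's strand reads TTTATA. No motif overlapped another kind. These are letter matches, and nothing about binding of a factor was measured.

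Between 5768312 and 9606938 reads per library were assigned to genes, of which 39.8% to 58.0% lay in mitochondrial genes. That share averaged 53.9% in untreated cells, 42.2% with MS023 at 15 min and 53.1% with GSK591 and Dex, where the libraries were farthest apart (SD 6.90, n = 2). Library 2 of GSK591 with Dex had the highest share and library 2 of MS023 at 15 min the lowest share and the fewest reads. Levels are given as CPM, read counts scaled to a common library size with TMM, a method that aligns the bulk of genes between libraries. Every change is therefore relative to the typical gene, and more polymerase per cell cannot be told apart from more cells transcribing the gene. Among epithelial markers, KRT8, KRT18 and KRT7 reached at least 119 CPM in every library, while EPCAM (1.30 to 4.09 CPM) and CDH1 (1.38 to 3.46 CPM) were low. Of 8 markers of other cell types, CD3E had no count in any library and PTPRC at most 1 count. COL1A1 (4.83 to 7.88 CPM) and CD68 (0.814 to 3.37 CPM) were counted in every library. COL1A1 thus lay above the highest values of EPCAM and CDH1. Other genes overlap 88.6% of the exon bases of CD68. The summed level of the 8 markers ranged from 7.18 to 11.3 CPM over all libraries. The glucocorticoid targets PER1, TSC22D3 and FKBP5 all rose with Dex beside either inhibitor, with log2 fold changes from 1.10 for FKBP5 beside MS023 to 1.91 for PER1 beside MS023 (edgeR's quasi-likelihood test, Benjamini-Hochberg adjusted p at most 0.00032).

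Per kilobase of annotated exon, NFKBIA had by far the highest mean level over the 14 libraries, 63.2 CPM per kb. NFKB2 (12.6) and RELA (11.4) followed, then NFKBIE (6.94), RELB (5.36), TNIP1 (4.53), NFKB1 (2.59), BIRC2 (2.52), TNFAIP3 (1.75) and BIRC3 (1.64). The order rests on exon length because, over 14014 genes, log counts climbed with log exon bases (slope 0.86 ± 0.02 SE) and declined with log gene span (slope -0.37 ± 0.01 SE), and the counted feature is not given in the sources used here. In untreated cells the groups of neighbours in this order were close: NFKB1 stood at 2.63 and BIRC2 at 2.37 CPM per kb, and TNFAIP3 at 1.32 and BIRC3 at 1.47, the reverse of their order over all libraries. Raw counts per library ran from 618 to 2754 for NFKBIA but only from 41 to 154 for TNFAIP3, 67 to 159 for BIRC3 and 60 to 120 for BIRC2, so the low genes carry the widest errors.

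**Figure D1:**
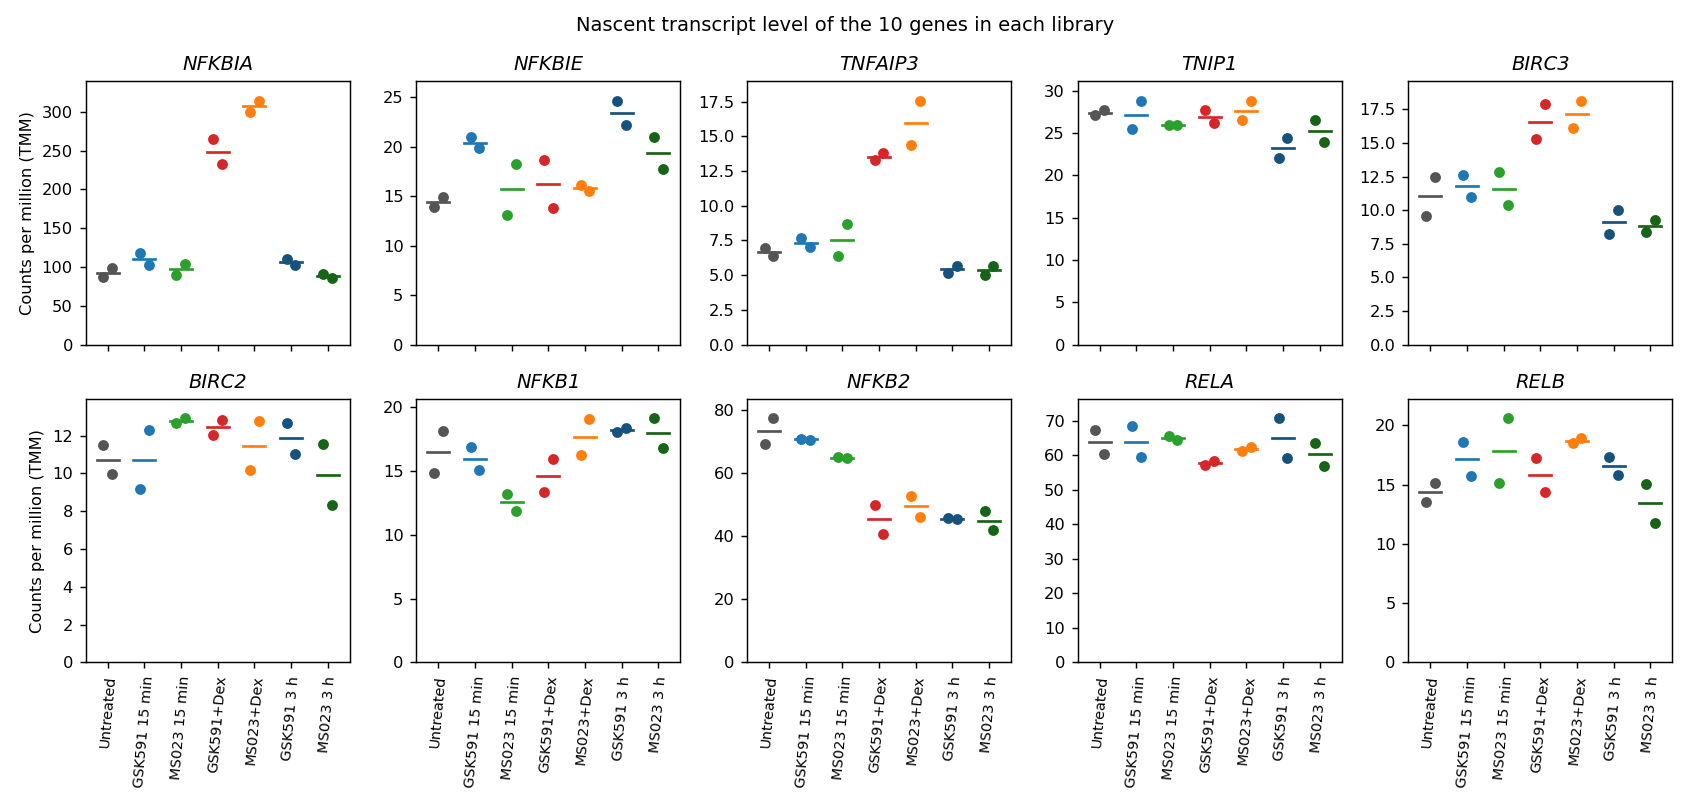
TMM-scaled CPM (vertical axis, from 0) for each of the 10 genes in the 7 groups; dots are libraries and bars the mean of 2. NFKBIA, TNFAIP3 and BIRC3 are highest in the 4 libraries with Dex, NFKB2 is lowest in the 4 libraries with Dex and the 4 at 3 h, and RELA and TNIP1 stay within a narrow band.

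With Dex beside an inhibitor, the genes of 2 feedback inhibitors rose and the gene of 1 subunit fell: NFKBIA and TNFAIP3 were higher and NFKB2 lower beside both drugs. Beside GSK591, 2 of the 10 genes were called higher and 1 lower, where of all genes tested 1.43% were called higher and 2.27% lower, 3.7% in all. Beside MS023, 4 were called higher (BIRC3 and NFKB1 in addition) and 1 lower, where of all genes 5.9% were called higher and 3.07% lower, 8.97% in all. The median log2 fold change of the 10 was -0.06 beside GSK591 and 0.09 beside MS023, and that of all genes was 0.00 and -0.02. The shares over all genes moved with single libraries. Beside GSK591, 811 genes were called in all, but 339 and 364 without library 1 or 2 of GSK591 at 15 min and 354 without library 2 of GSK591 with Dex. Beside MS023, 1966 were called, but 641 without library 1 of MS023 at 15 min and 1254 and 929 without library 1 or 2 of MS023 with Dex.

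NFKBIA encodes IκBα, the inhibitor that traps RELA dimers in the cytoplasm and is quickly remade once the factor is active (ENSG00000100906.10, chromosome 14, 35401511 to 35404749, minus strand, no exon shared with another gene). Its level was 86.8 and 98.1 CPM in the untreated libraries, 119 and 102 with GSK591 at 15 min, and 89.96 and 104 with MS023 at 15 min. With Dex it was 265 and 233 CPM beside GSK591 and 299.6 and 314 CPM beside MS023. The 4 Dex libraries did not overlap the other 10, and the MS023 pair lay above the GSK591 pair. Beside GSK591 the rise was 2.25-fold (log2 fold change 1.17 ± 0.10 SE, adjusted p 1.1e-10), and beside MS023 3.17-fold (1.66 ± 0.10 SE). Against untreated cells the same Dex libraries stood at 1.43 ± 0.10 and 1.73 ± 0.10 on the log2 scale (adjusted p 2.6e-13 and 8.5e-16). All these calls held in each of 21 alternative settings. At 3 h without Dex the gene read 110 and 102 CPM with GSK591, above both untreated libraries. With MS023 it read 90.6 and 85.6 CPM, the first inside the untreated range and the second below it. Neither group was called.

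At 15 min without Dex, NFKBIA stood 0.26 ± 0.10 above untreated cells on the log2 scale with GSK591 and 0.07 ± 0.11 with MS023, neither called. The 2 Dex rises are thus measured from different starting values. The rise beside MS023 was the larger by 0.49 ± 0.14 (95% interval 0.20 to 0.78). In edgeR's quasi-likelihood test the unadjusted p was 0.0015 but the adjusted p 0.0895, so the difference did not pass. Without library 1 of GSK591 with Dex, the higher of that pair, the difference was 0.60 with an adjusted p of 0.022. None of the 10 genes was called for a difference between the 2 Dex effects, where 1.15% of all genes were; 2 had an unadjusted p under 0.05, and DESeq2 called 0. That share, 252 genes, rested on single libraries: it was 8 genes without library 1 of MS023 at 15 min, 31 without library 1 of GSK591 at 15 min, 105 and 57 without library 2 of GSK591 or MS023 with Dex, and 490 without library 1 of GSK591 with Dex. The other of the 2 was NFKB1, at 0.62 ± 0.22 in the same direction (adjusted p 0.22). For TNFAIP3 the 2 Dex effects differed by 0.23 ± 0.27 and for NFKB2 by 0.24 ± 0.15, and both intervals include 0.

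Ratios of raw counts within a library do not depend on scaling between libraries. The ratio of NFKBIA to RELA counts was 1.29 to 1.73 in the 10 libraries without Dex, 4.64 and 3.98 with Dex beside GSK591, and 4.88 and 5.04 beside MS023. The ratio of TNFAIP3 to RELA was 0.0731 to 0.135 without Dex and 0.233 to 0.282 with it. Both ratios separated every Dex library from every other library. The ratio of BIRC3 to its neighbour BIRC2 was 0.65 to 1.37 without Dex and 1.27 to 1.59 with Dex, and these ranges overlap.

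TNFAIP3 encodes A20, a ubiquitin-editing enzyme that shuts off signalling from cytokine receptors to the IκB kinase (ENSG00000118503.14, chromosome 6, 137867188 to 137883312, plus strand; 95 bases, 1.88% of its exons, overlap an antisense gene). Untreated libraries read 6.99 and 6.35 CPM, GSK591 at 15 min 7.65 and 7.03, and MS023 at 15 min 6.38 and 8.71. With Dex the gene read 13.3 and 13.8 CPM beside GSK591 and 14.4 and 17.6 CPM beside MS023. All 4 Dex libraries lay above all others, as for NFKBIA, although the level is far lower. The rises were 1.84-fold (log2 fold change 0.88 ± 0.19 SE, adjusted p 0.0042) and 2.16-fold (1.11 ± 0.19 SE, adjusted p 4.2e-05). Leaving out library 2 of GSK591 at 15 min gave 0.82 with an adjusted p of 0.072, and the call beside MS023 held in all 21 settings. At 3 h it read 5.17 and 5.70 CPM with GSK591 and 5.02 and 5.68 CPM with MS023, all below the untreated libraries, with log2 fold changes of -0.30 ± 0.22 and -0.33 ± 0.22 that were not called.

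BIRC3 and BIRC2 encode the paired ubiquitin ligases cIAP2 and cIAP1, which act in receptor complexes and keep the NFKB2 route off. They lie head to tail on chromosome 11, BIRC3 at 102317450 to 102339403 (ENSG00000023445.13) and BIRC2 at 102347211 to 102378670 (ENSG00000110330.8), both on the plus strand, with 7808 bases between them. BIRC3 read 9.57 and 12.5 CPM in untreated libraries, 12.6 and 11.0 with GSK591 and 12.9 and 10.4 with MS023 at 15 min, against 15.3 and 17.9 CPM with Dex beside GSK591 and 16.1 and 18.2 CPM beside MS023. Its Dex libraries too lay above all others. The rise beside MS023 was 1.46-fold (log2 fold change 0.55 ± 0.17 SE, adjusted p 0.032), and beside GSK591 the value was 0.49 ± 0.17 (adjusted p 0.11), which was not called. BIRC2 read 8.31 to 12.9 CPM over all 14 libraries, with Dex libraries inside that range, and was called in none of the 13 comparisons.

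The BIRC3 call was the less firm one. Beside MS023 it was lost when any 1 of the 4 libraries compared was left out, with adjusted p from 0.055 (without library 1 of MS023 with Dex) to 0.25 (without library 2 of that group). DESeq2 gave an adjusted p of 0.15. Against untreated cells BIRC3 stood at 0.59 ± 0.17 with GSK591 and Dex (adjusted p 0.033) and 0.64 ± 0.17 with MS023 and Dex (adjusted p 0.010). Without untreated library 1, the lower one, these became 0.40 (adjusted p 0.42) and 0.45 (adjusted p 0.29); without library 2 of the Dex group they had adjusted p of 0.23 and 0.15.

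**Figure D2:**
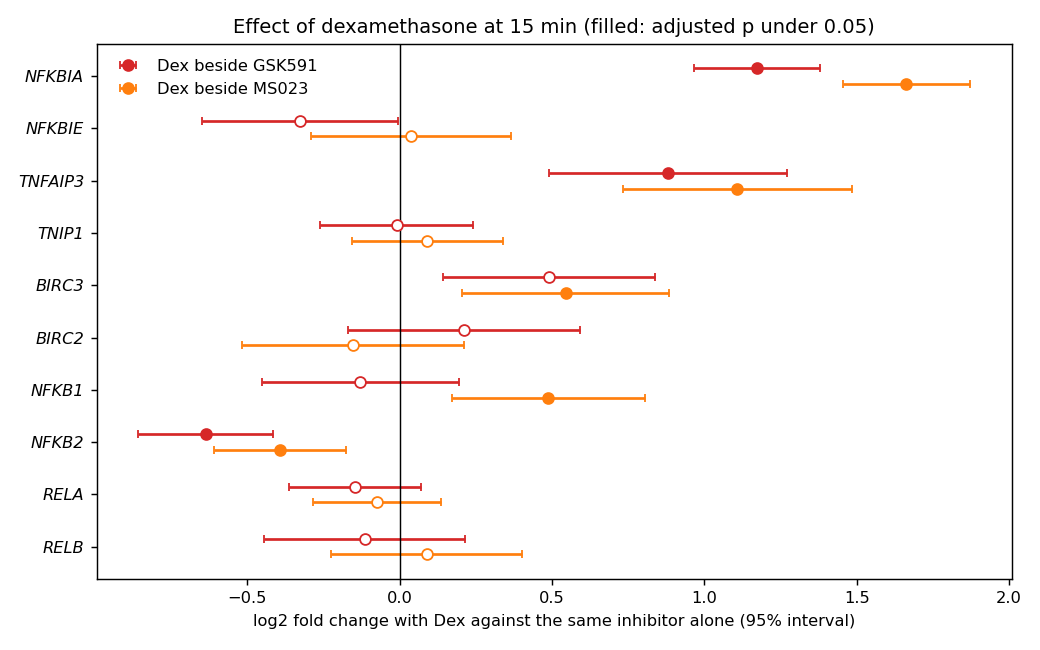
Log2 fold change (horizontal axis) of each gene with Dex against the same inhibitor alone at 15 min, beside GSK591 (red) and MS023 (orange); bars are 95% intervals and filled points had an adjusted p under 0.05. NFKBIA stands at 1.17 and 1.66, TNFAIP3 at 0.88 and 1.11, and NFKB2 at -0.64 and -0.39.

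NFKB2 encodes the precursor whose processing feeds the slower NF-kappa-B route and which, unprocessed, acts as an IκB-like inhibitor (ENSG00000077150.18, chromosome 10, 102394110 to 102402529, plus strand, no shared exon). It read 69.4 and 77.3 CPM in untreated libraries, 70.9 and 70.6 with GSK591 and 65.0 and 64.7 with MS023 at 15 min. With Dex it read 49.9 and 40.9 CPM beside GSK591 and 52.8 and 46.0 CPM beside MS023. At 3 h without Dex it read 45.8 and 45.3 CPM with GSK591 and 47.9 and 41.8 CPM with MS023. The 8 Dex and 3 h libraries, 40.9 to 52.8 CPM, all lay below the 6 others, 64.7 to 77.3 CPM.

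NFKB2 fell by 0.64 ± 0.11 on the log2 scale with Dex beside GSK591 (adjusted p 0.00021) and by 0.39 ± 0.11 beside MS023 (adjusted p 0.013). The second call was lost without library 1 or 2 of MS023 at 15 min (adjusted p 0.13 and 0.063) and without library 2 of MS023 with Dex (log2 fold change -0.29, adjusted p 0.27). At 3 h it fell by 0.69 ± 0.10 with GSK591 and by 0.70 ± 0.11 with MS023 against untreated cells (adjusted p 8.0e-06 and 7.6e-06). Against the same inhibitor at 15 min it fell by 0.63 ± 0.11 and 0.53 ± 0.11 (adjusted p 0.00011 and 0.00060). The 3 h calls held in all 21 settings. Beside the fall, PER1 and TSC22D3 were also lower at 3 h than in untreated cells, PER1 with log2 fold changes of -0.93 ± 0.15 and -0.73 ± 0.15, whereas both rose with Dex.

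NFKB1 encodes the precursor of p50, the usual partner of RELA (ENSG00000109320.11, chromosome 4, 102501329 to 102617302, plus strand). It read 14.8 and 18.1 CPM in untreated libraries and 16.8 and 15.0 with GSK591 at 15 min, but 13.2 and 11.9 with MS023 at 15 min, its lowest group. With Dex it read 13.3 and 15.9 CPM beside GSK591 and 16.2 and 19.1 CPM beside MS023. The rise beside MS023 (log2 fold change 0.49 ± 0.16 SE, adjusted p 0.041) therefore starts from the lowest group, and against untreated cells the same Dex libraries stood at 0.10 ± 0.15, which was not called. The call was lost in 10 of 21 settings, including leaving out library 1 of MS023 at 15 min (adjusted p 0.15), library 2 of that group (0.20) or library 2 of MS023 with Dex (0.35), and, by a narrow margin, either library of GSK591 at 15 min (0.051 and 0.050) or at 3 h (0.052 for both). At 3 h with MS023 it read 19.1 and 16.8 CPM, a rise of 0.51 ± 0.16 over MS023 at 15 min (adjusted p 0.025) that was lost without either 15 min library (0.089 and 0.15) or library 1 of the 3 h group (0.24). Against untreated cells that group stood at 0.13 ± 0.15 and was not called.

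RELA, the main activating subunit (ENSG00000173039.18, chromosome 11, 65653596 to 65663094, minus strand), was the steadiest of the abundant genes, with a lowest value of 56.9, a median of 61.8 and a highest of 70.7 CPM over the 14 libraries. Its highest and lowest group means differed 1.13-fold, against 3.48-fold for NFKBIA. With Dex its log2 fold change was -0.15 (95% interval -0.36 to 0.07) beside GSK591 and -0.07 (-0.28 to 0.14) beside MS023. RELB, the partner of processed NFKB2 (ENSG00000104856.13, chromosome 19, 45001430 to 45038198, plus strand), read 11.8 to 20.6 CPM with a median of 15.8. Neither gene was called in any of the 13 comparisons. The nearest for RELB were MS023 with Dex against untreated cells (0.38 ± 0.16, adjusted p 0.14) and MS023 at 3 h against 15 min (-0.38 ± 0.16, adjusted p 0.14).

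NFKBIE encodes IκBε, a sister inhibitor to IκBα (ENSG00000146232.16, chromosome 6, 44258166 to 44265788, minus strand), and its pattern differed from that of NFKBIA. It read 13.9 and 14.9 CPM in untreated libraries, 21.0 and 19.9 with GSK591 and 13.1 and 18.3 with MS023 at 15 min. With Dex it read 18.7 and 13.8 CPM beside GSK591 and 16.1 and 15.5 CPM beside MS023. At 3 h it read 24.7 and 22.2 CPM with GSK591 and 21.0 and 17.7 CPM with MS023. The GSK591 libraries at both times lay above both untreated libraries, and the Dex libraries did not stand out. The rise at 3 h with GSK591 was 1.63-fold (log2 fold change 0.71 ± 0.15 SE, adjusted p 0.0010) and held in all 21 settings. The values with GSK591 at 15 min (0.51 ± 0.15, adjusted p 0.23) and MS023 at 3 h (0.44 ± 0.16, adjusted p 0.078) were not called. The latter passed without library 1 or 2 of GSK591 with Dex (adjusted p 0.047 and 0.045), neither of which is in the groups compared, with log2 fold changes of 0.45 in both cases; the cause was not tested. Against MS023 at 15 min the 3 h value was not called either (0.34 ± 0.16, adjusted p 0.18), and it passed without library 2 of the 15 min group (log2 fold change 0.58, adjusted p 0.049). The direct difference between GSK591 and MS023 was 0.41 ± 0.16 at 15 min and 0.27 ± 0.15 at 3 h, neither called.

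TNIP1 encodes ABIN1, a ubiquitin-binding partner of A20 (ENSG00000145901.15, chromosome 5, 151029945 to 151093577, minus strand). It read 22.1 to 28.9 CPM with a median of 26.3 over the 14 libraries and was called nowhere. With Dex its log2 fold change was -0.01 (95% interval -0.26 to 0.24) beside GSK591 and 0.09 (-0.15 to 0.34) beside MS023, intervals that exclude a rise of the size seen for TNFAIP3.

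At 15 min without Dex neither inhibitor moved any of the 10 genes past the threshold. GSK591 gave 0 calls of 10, where 0.306% of all genes were called, and MS023 gave 0, where 0.183% were. DESeq2 also called 0 in both. An unadjusted p under 0.05 was reached by 2 genes with GSK591 (NFKBIE and NFKBIA, 0.26 ± 0.10) and by 1 with MS023 (NFKB1, -0.38 ± 0.16). Compared directly, GSK591 and MS023 gave 0 calls at 15 min, where 1.09% of all genes were called, and 0 at 3 h, where 0% were; 2 genes and 1 gene had an unadjusted p under 0.05, and DESeq2 called 0 in each. The 1.09%, 239 genes, fell to 0 without library 1 of MS023 at 15 min and to 14 without library 1 of GSK591 at 15 min. The shares for each inhibitor against untreated cells, 67 and 40 genes, ranged over 4 to 104 and 2 to 88 genes when any 1 library was left out, lowest without library 1 of GSK591 at 15 min and without untreated library 2. With GSK591 the count was also 10 and 21 without untreated library 1 or 2, and 103 and 104 without library 1 or 2 of GSK591 with Dex. With MS023 it was 17 without untreated library 1, 18 and 22 without library 1 or 2 of MS023 at 15 min, and 88 and 85 without library 1 or 2 of GSK591 with Dex. The 0 genes called between the inhibitors at 3 h became 10 with DESeq2 and 47 without a count filter. Some fits with a library left out also called genes. At 3 h, NFKBIA was 0.27 ± 0.11 higher with GSK591 than with MS023 (adjusted p 0.72), the 1 gene with an unadjusted p under 0.05 there.

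Counts for the remaining comparisons follow from the same genes. With GSK591 and Dex against untreated cells, 3 of the 10 were called higher and 1 lower, where of all genes 3.21% were higher and 2.64% lower, 5.85% in all. With MS023 and Dex it was also 3 and 1, where 4.99% were higher and 2.67% lower, 7.66% in all. At 3 h against untreated cells GSK591 gave 1 higher and 1 lower, where 7.25% and 3.79% were, 11% in all, and MS023 gave 0 and 1, where 5.4% and 2.23% were, 7.63% in all. At 3 h against 15 min GSK591 gave 0 higher and 1 lower, where 3.65% and 2.77% were, 6.41% in all, and MS023 gave 1 and 1, where 7.65% and 4.4% were, 12% in all. Of 10 genes a single call is 10%, so the 3 h counts lie near the background share. Leaving out 1 library of the groups compared also moved these shares: the 1282 and 1679 genes called with Dex fell to 420 and 657 without untreated library 1, the 2419 and 1672 called at 3 h against untreated cells to 1092 and 834 without untreated library 2, and the 1405 and 2640 called at 3 h against 15 min to 388 without library 2 of GSK591 at 15 min and 1160 without library 1 of MS023 at 15 min. These were the lowest counts in each comparison. With Dex against untreated cells the count was also 609 (GSK591) and 908 (MS023) without untreated library 2, 821 without library 2 of GSK591 with Dex, and 963 and 759 without library 1 or 2 of MS023 with Dex. At 3 h against untreated cells it was 1317 and 901 without untreated library 1, 1412 and 1248 without library 1 or 2 of GSK591 at 3 h, and 871 without library 1 of MS023 at 3 h. At 3 h against 15 min it was 665 without library 1 of GSK591 at 15 min, 634 and 455 without library 1 or 2 of GSK591 at 3 h, and 1649 and 1674 without library 1 or 2 of MS023 at 3 h. These comparisons share libraries with one another, the untreated or the 15 min pair, and are set side by side only. In the authors' deposited tables, which compare each treatment with untreated cells, NFKBIA was called with Dex beside both inhibitors (log2 fold changes 1.34 and 1.64), TNFAIP3 beside MS023 (1.33), and NFKB2 in both Dex and both 3 h tables (-0.65 to -0.78). BIRC3 and NFKBIE were called in none of those tables.

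**Figure D3:**
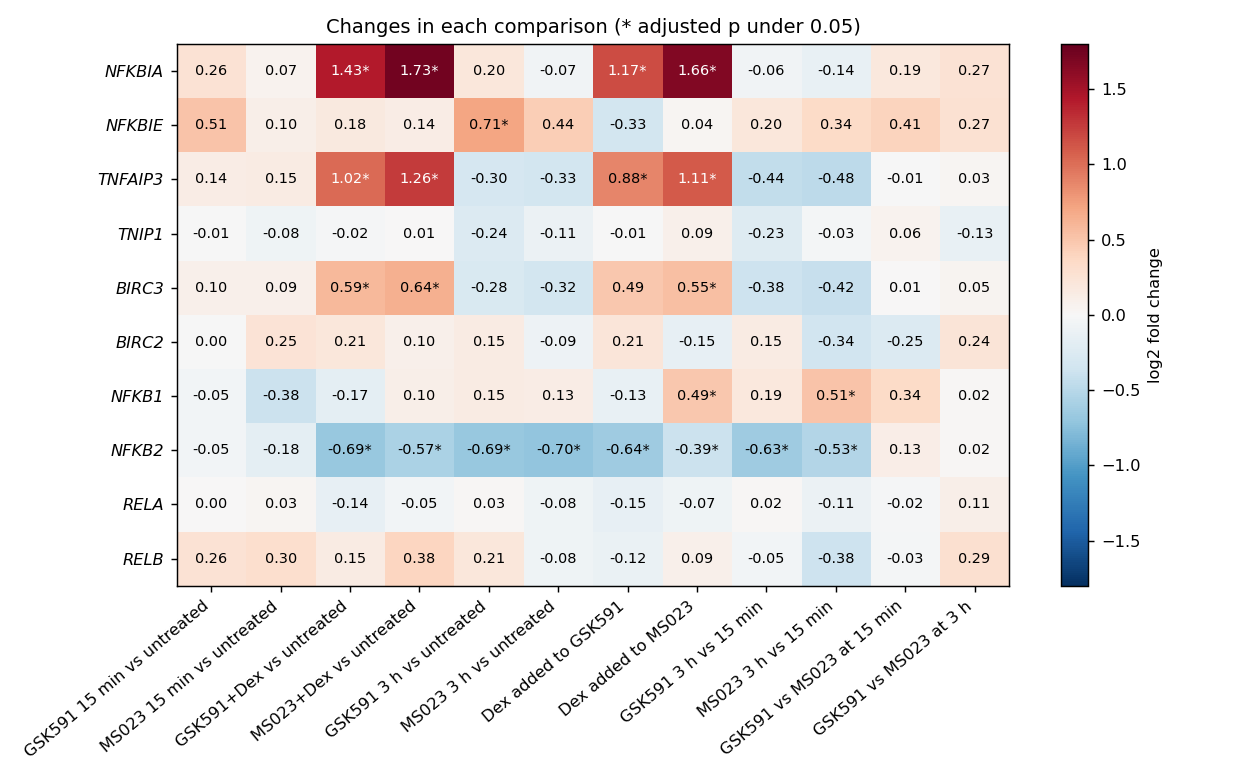
Log2 fold change (colour and number) of the 10 genes (rows) in 12 comparisons (columns); a star marks an adjusted p under 0.05. NFKBIA and TNFAIP3 are starred in all 4 columns with Dex, BIRC3 in 3 of them, and NFKB2 in all 4 and in the 4 columns that test 3 h against untreated or 15 min cells, while RELA, RELB, TNIP1 and BIRC2 have none.

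Around these genes, 62 further pathway genes in 6 lists were read, of which 56 passed the count filter; TNIP3, TNFRSF1B, TLR3, TLR4, BCL2A1 and VCAM1 did not. With Dex beside GSK591, 0 of 56 were called higher and 9 lower, where of all genes 1.43% were higher and 2.27% lower. Beside MS023, 6 were called higher and 5 lower, where 5.9% and 3.07% of all genes were. The same shares apply to the counts of each list, but in lists of 5 to 13 genes a single call already exceeds them, so the list counts are a description. List medians lay between -0.11 and 0.10 beside GSK591 and between -0.14 (adaptors and ubiquitin ligases) and 0.21 (receptors, 5 genes tested) beside MS023. The medians of all genes were -0.004 and -0.016.

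Among receptors, TNFRSF12A, the receptor of the cytokine TWEAK, was the clearest. It read 159 and 173 CPM in untreated libraries, 165 and 169 with GSK591 and 162 and 157 with MS023 at 15 min, against 113 and 110 CPM with Dex beside GSK591 and 120 and 106 CPM beside MS023. All 4 Dex libraries lay below every other library. It fell by 0.58 ± 0.10 and 0.49 ± 0.09 on the log2 scale (adjusted p 0.00010 and 0.00032), and both calls held in all 21 settings. IL1R1, an interleukin receptor, rose beside MS023 (0.44 ± 0.13, called in 15 of 21 settings). Many of the 21 settings leave out a library that is not in the groups compared. A number of settings, here and below, therefore makes a call look firmer than its own libraries do. Of 5 receptors tested, 1 was called lower beside GSK591, and 1 higher and 1 lower beside MS023.

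Among adaptors and ubiquitin ligases, 3 of 9 were called lower beside GSK591 and 1 of 9 beside MS023. TRADD, the adaptor that docks on the TNF receptor, fell in both (-0.60 ± 0.16 and -0.53 ± 0.16), with calls in 17 and 16 of 21 settings. RNF31, the catalytic subunit of the ligase that builds linear ubiquitin chains, fell beside GSK591 (-0.64 ± 0.15, 19 of 21 settings), but 39.1% of its exon bases overlap other genes, and the strand setting of the counts is not given in the sources used here. Of 13 kinases and kinase partners, IKBKG (-0.41 ± 0.11) and MAP3K14 (-0.33 ± 0.10) were called lower beside GSK591, the second in only 5 of 21 settings, and TAB2 was called higher beside MS023 (0.64 ± 0.17, 16 of 21). IKBKG, the regulatory subunit of the IκB kinase, and MAP3K14, the kinase that starts the NFKB2 route, overlap other genes in 9.69% and 12.3% of exon bases.

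Among the other subunits and IκB proteins, 0 of 5 were called beside GSK591 (1 had an unadjusted p under 0.05), while beside MS023 NFKBIZ rose (0.35 ± 0.11, 16 of 21 settings) and NFKBID fell (-0.67 ± 0.15, 20 of 21). Both encode nuclear IκB proteins. NFKBID read 21.2 and 20.4 CPM with MS023 alone and 12.9 and 13.4 with Dex. Beside GSK591 it read 22.4 and 21.7 alone and 16.0 and 16.4 with Dex, where the fall was not called. Against untreated cells 2 of the 5 were called lower with Dex beside either inhibitor, where 2.64% and 2.67% of all genes were. NFKBIB stood at -0.48 ± 0.14 beside GSK591 and -0.55 ± 0.14 beside MS023 (17 and 19 of 21 settings). NFKBID stood at -0.51 ± 0.14 and -0.82 ± 0.14 (16 and 21 of 21). Among the other brakes, 0 of 11 were called beside GSK591 (2 had an unadjusted p under 0.05), and beside MS023 TNIP2, an A20-binding protein, and ZC3H12A, an RNase that degrades inflammatory messages, rose by 0.66 ± 0.17 and 0.38 ± 0.11 (18 and 14 of 21 settings). Among target genes other than chemokines, 3 of 13 were called lower beside GSK591, and 1 higher and 2 lower beside MS023. TNFAIP2 fell in both (-0.59 ± 0.10 and -0.37 ± 0.10, 21 and 18 of 21 settings), PLAU, the urokinase protease, fell beside GSK591 (-0.61 ± 0.15), and beside MS023 IER3 fell (-0.39 ± 0.10) and CFLAR, a caspase inhibitor, rose (0.39 ± 0.09). Against untreated cells PLAU was called lower with Dex beside GSK591 (-0.80 ± 0.14) and beside MS023 (-0.83 ± 0.14). With MS023 alone it was called higher at 3 h than at 15 min (0.78 ± 0.13). PLAU, IER3 and CFLAR overlap other genes in 31.1%, 26.5% and 12.0% of exon bases.

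**Figure D4:**
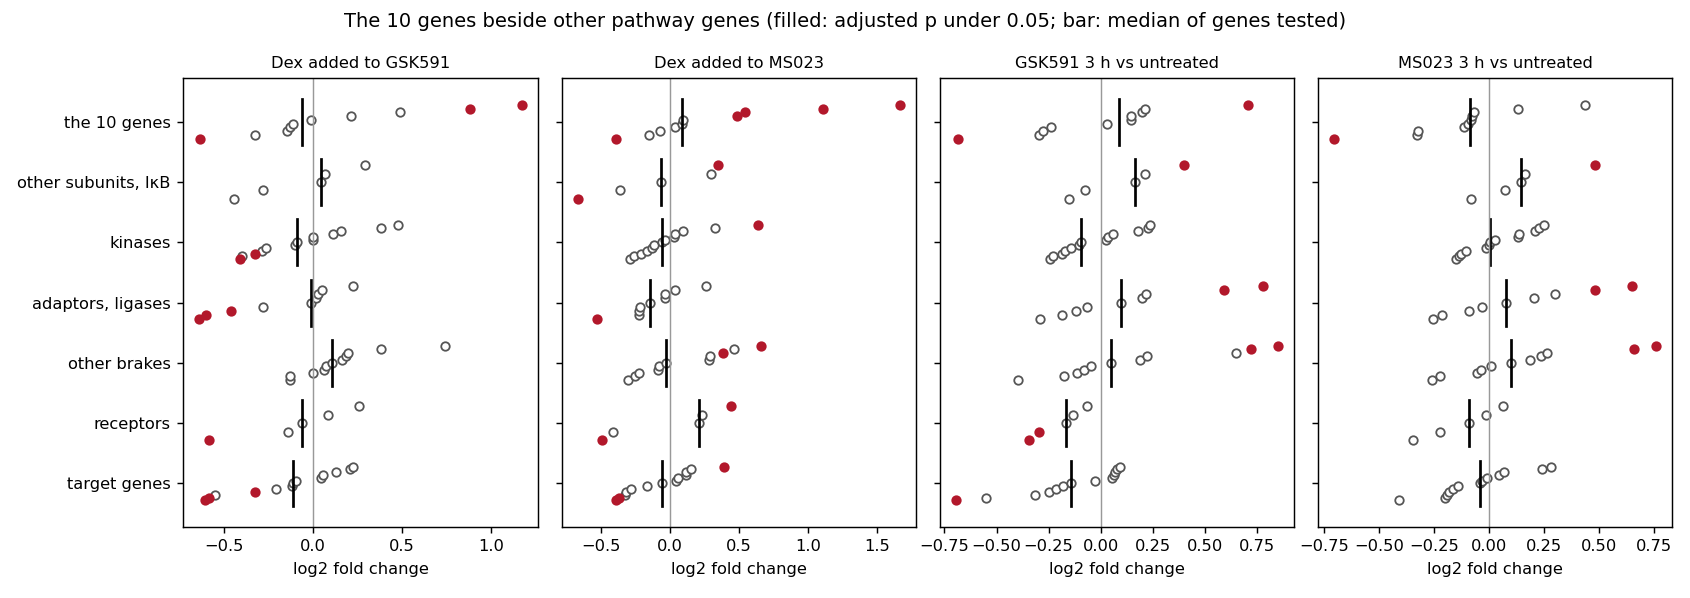
Log2 fold change (horizontal axis) of the 10 genes and of 56 other pathway genes in 6 lists, in the Dex comparisons and at 3 h against untreated cells; each point is a gene, filled where the adjusted p was under 0.05, and bars are list medians. NFKBIA and TNFAIP3 lie to the right of every other pathway gene in both Dex panels, at 0.88 and above.

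At 3 h against untreated cells, 5 of the 56 were called higher with each inhibitor, and 3 lower with GSK591 and 0 with MS023. Of all genes 7.25% were higher and 3.79% lower with GSK591, and 5.4% and 2.23% with MS023, so these counts lie near the background share. The 5 called higher were RNF31, TRADD, TNIP2, RNF11 and NFKBIZ with either inhibitor. With GSK591 their log2 fold changes were 0.78 ± 0.13, 0.59 ± 0.14, 0.85 ± 0.16, 0.72 ± 0.20 and 0.40 ± 0.11, and with MS023 0.65 ± 0.13, 0.48 ± 0.15, 0.76 ± 0.16, 0.66 ± 0.20 and 0.48 ± 0.11, in that order. In the same order, the calls held in 21, 19, 21, 18 and 19 of 21 settings with GSK591. With MS023 they held in 20, 17, 20, 16 and 20. TNIP2 read 13.4 and 13.5 CPM in untreated libraries, 22.3 and 26.4 with GSK591 and 25.7 and 19.5 with MS023 at 3 h, with no overlap. RNF31 and TRADD were thus called lower with Dex beside GSK591 and higher at 3 h, while NFKB2 was lower in both. The 2 inhibitor groups share the untreated libraries. Those called lower with GSK591 were the receptors LTBR (-0.30 ± 0.09) and TNFRSF12A (-0.34 ± 0.09) and TNFAIP8 (-0.70 ± 0.18), in 15, 17 and 16 of 21 settings.

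Across the 7 group means, the genes whose log2 CPM followed TNFAIP3 most closely, of 13517 genes averaging 5 CPM or more, were PER2, AKAP13, ANGPTL4, PER1 and SMC2 (Pearson r 0.996 to 0.993). For BIRC3 they were SMC2, FICD, MT1X, PER2 and NEAT1 (0.994 to 0.990), and for NFKBIA TMSB10, PSD3, JAGN1, AC005839.1 and VASP (0.991 to 0.987). PER2 and SMC2 appear in both of the first 2 lists. These coefficients rest on 7 points that share their libraries and scaling, 2 of which carry Dex, and are given as a description.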

How the data were processed

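The authors deposited 1 table of whole-number read counts per gene for 14 libraries and 6 tables of their own comparisons with log2 fold changes and adjusted p-values. Per the submitters' processing notes featureCounts 2.0.1 (Subread), DESeq2 and the hg38 build were used; the aligner, the counted feature, strand use and duplicate removal are not given in the sources used here. PRO-seq was the assay, per the labels. No spike-in was used here, so changes are relative.

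The counts were tested with edgeR 4.0.16 in R 4.3.3 (TMM scaling, filterByExpr, quasi-likelihood test, 1 coefficient per group over all 14 libraries, 7 residual degrees of freedom). A call is a Benjamini-Hochberg adjusted p under 0.05 over 21910 genes; every adjusted p in the report comes from this test unless another is named. SE is the log2 fold change divided by the root of the test's F, and intervals are 95%. With 2 libraries per group, SDs are over 2 values. The procedure was also run on counts simulated from its own fit. Such counts cannot show how the test behaves with the differences between these libraries. Coordinates and overlaps come from GENCODE release 29 (GRCh38), whose release was matched by gene identifier.

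The members and the pathway lists were chosen with earlier results of these data known. Genes named outside the 10 were, per list and comparison, at most the 2 largest rises and 2 largest falls among called genes whose groups did not overlap; the 5 genes most like NFKBIA, TNFAIP3 and BIRC3; and 3 Dex targets. TNFAIP3 overlaps an antisense gene, and BIRC2 and BIRC3 share 41 stretches of 30 bases. NFKB2 shares 194 such stretches with other genes, 4.26% of its own and the largest share of the 10. BIRC3, TNFAIP3 and RELA share 106, 68 and 56 with other genes. The effect of shared stretches on the counts was not tested. Alternatives were DESeq2 1.42.0, 3 other scalings or gene sets, no count filter, only the groups compared, a replicate block and leaving out each library. In a comparison of 2 groups, most of the libraries left out were in neither group. BIRC3 beside MS023 was thus called in 14 of 21 settings, although leaving out any 1 of the 4 libraries compared lost the call.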

Additional observations from a re-analysis of the deposited data

How the results depend on the processing

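Over 21 alternative settings, no value for the 10 genes or for the named pathway genes changed direction with a call. Of the fold changes of the 10 genes, 2674 of the values under alternatives kept their side of the threshold, 35 lost a call and 4 gained one. Most of these results were not called in the main fit. A value that stayed uncalled counts as kept whatever its direction, so the 2674 do not measure how firm the calls are. Of the values of the named pathway genes, 1002 kept their side and 195 lost a call. Those genes were chosen as called and could not gain one. The number of the 10 genes called with Dex beside MS023, 5, was 3 with library size alone, 3 without a count filter, 3 with DESeq2 and 2 to 5 when 1 library was left out. The number for MS023 at 3 h against 15 min, 2, was 1 with library size alone, 1 with DESeq2 and 1 to 2 with a library left out. Leaving out 1 library gave 1 to 2 for MS023 at 3 h against untreated cells and 0 to 1 for the difference between the Dex effects. The genes concerned were BIRC3, NFKB1, NFKB2, NFKBIE, NFKBIA and TNFAIP3; the cause was not tested. With library size alone the median of all genes moved by up to -0.21 on the log2 scale (Dex beside GSK591), and by -0.19 (Dex beside MS023), 0.16 (MS023 at 15 min) and -0.16 (MS023 at 3 h against 15 min); TMM removes this shift.

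The labels give no shared batch for a replicate number. Over 21 pairs of groups, deviations of same-numbered libraries correlated at -0.10 to 0.22, with 7 above 0.1 and 1 below -0.1, so not every pair passed 0.1 and the numbers were not used as a pairing. With the replicate block the number of the 10 genes called was unchanged in each of the 13 comparisons (5 with Dex beside MS023 and 3 beside GSK591). Depth limits TNFAIP3, BIRC2 and BIRC3 most, at 41 to 159 counts per library.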
